A study of Mus musculus with 9 samples.

Results

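The genes described here are 10 genes of the fibrillar collagen matrix and of the mesenchyme around the eye: *Col1a1*, *Col1a2*, *Col3a1*, *Col5a1*, *Col5a2*, *Dcn*, *Lum*, *Postn*, *Fbn1* and *Pdgfra*. No measured value enters the rule, which takes the entries with these symbols. The genes were, however, chosen with earlier results of these data known. The shares over all genes given beside theirs are therefore no matched background. Each symbol matched 1 entry of the deposited table, so that all 10 were found among 15820 entries with a gene symbol (22013 entries in all). The values are from RNA-sequencing of whole mouse lenses at embryonic stage E16.5, on an ICR background, in 9 libraries of 8 pooled lenses each. The small Maf transcription factor genes *Mafg* and *Mafk* carried germline null alleles, present in every cell of the embryo and not in the lens alone. Control lenses were *Mafg*+/-:*Mafk*+/-, so that they also carried a null allele of each gene. Compound KO lenses were *Mafg*-/-:*Mafk*+/- and double KO lenses were *Mafg*-/-:*Mafk*-/-, with 3 libraries in each of the 3 groups. The labels call the replicates biological but do not say whether they came from separate litters, so a p-value measures only the spread between these libraries.

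Fibrillar collagens are secreted as triple-helical molecules that assemble outside the cell into banded fibrils, the load-bearing element of cornea, sclera, skin, tendon and bone. In the eye they are made mainly by the periocular mesenchyme, cells of neural crest and mesoderm origin that surround the optic cup and lens and form the corneal stroma, sclera, eyelid dermis and the connective tissue around the eye muscles. The lens itself is an epithelial organ without blood vessels, enclosed in a capsule of type IV collagen and laminin, which is a basement membrane and holds no fibrils of this kind.

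The promoters of some of these genes are shown first, because *Mafg* and *Mafk* act by binding DNA and the windows that hold letters of a Maf-type site can then be read beside the expression values. The RefSeq promoter table (build GRCm38.p6) had entries for 6 of the 10 genes, namely *Col1a2*, *Col3a1*, *Col5a1*, *Fbn1*, *Pdgfra* and *Postn*, with 7 windows in all since *Postn* had a pair. Each window was placed on GRCm39 by its only exact match, and the 250 bases before the RefSeq start were searched on both strands for CCAAT (the CCAAT box), TATAAA (the TATA box), TGACNNNGC (the core of the antioxidant response element, bound by dimers of a CNC factor and a small Maf) and TGCTGA (a Maf half-site). The windows that held either of the last 2 motifs are printed 5′ to 3′ on the plus strand, without any bases of the annotated gene, and with every match to the 4 motifs in capitals:
Col3a1, GRCm39 chr1:45350448-45350697: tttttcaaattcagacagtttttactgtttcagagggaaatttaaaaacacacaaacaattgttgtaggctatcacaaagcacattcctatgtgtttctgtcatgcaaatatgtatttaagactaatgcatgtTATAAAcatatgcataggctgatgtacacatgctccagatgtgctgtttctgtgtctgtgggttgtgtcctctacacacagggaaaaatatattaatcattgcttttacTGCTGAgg
Col5a1, GRCm39 chr2:27776187-27776396: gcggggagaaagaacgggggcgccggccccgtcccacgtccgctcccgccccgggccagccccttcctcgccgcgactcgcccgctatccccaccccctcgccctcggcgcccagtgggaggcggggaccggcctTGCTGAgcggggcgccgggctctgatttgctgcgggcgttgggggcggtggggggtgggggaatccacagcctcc
Postn, upstream window, GRCm39 chr3:54266438-54266687: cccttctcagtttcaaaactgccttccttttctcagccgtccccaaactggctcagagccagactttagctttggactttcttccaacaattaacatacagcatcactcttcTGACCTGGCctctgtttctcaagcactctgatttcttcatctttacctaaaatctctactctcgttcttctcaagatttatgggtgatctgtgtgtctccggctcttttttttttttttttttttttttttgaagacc
In *Col3a1* the capitals mark TATAAA at −117 and TGCTGA at −8 from the RefSeq start. In *Col5a1* they mark TGCTGA at −115, and in the upstream window of *Postn* they mark TGACNNNGC at −138. That *Postn* window ends well before the annotated start of the gene at chr3:54268501, and its position is counted from its own RefSeq start. Among the windows not printed, that of *Col1a2* held CCAAT at −109, the downstream *Postn* window held TATAAA at −26, and those of *Fbn1* and *Pdgfra* held no match. The windows of *Col1a2*, *Fbn1* and *Pdgfra* lie before their RefSeq starts but wholly within the gene as annotated here. The TATAAA of the downstream *Postn* window likewise lies just past the annotated start of that gene. Of all 32851 RefSeq windows of this length, 10.2% held TGACNNNGC, 16.1% TGCTGA, 33.8% CCAAT and 12.4% TATAAA, so that a match by itself is common.

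Before the genes are compared between genotypes, the libraries need a description, since compound KO replicate 1 stood apart from the other 8. Its values added up to 728036, against 977149 to 1131180 in the others. These are totals of the authors' normalized CPM (counts relative to a fixed library total), not sequencing depths, which are unknown. Its summed value over 12 lens genes, led by *Crybb1*, *Mip* and *Bfsp1*, was 19331.5, against 47132.4 to 65524.2 in the other 8 libraries. The targeted genes followed the labels: *Mafg* was at 112.9 to 134.5 normalized CPM in control and at 10.1 to 26.2 in the 6 KO libraries, and *Mafk* was at 4.3 or more in control and compound KO and at 0.6 or less in double KO. The comparisons of the 10 genes that use compound KO replicate 1, and the counts over related genes, are therefore also given without it.

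Type I collagen, the chief fibril of cornea, sclera and dermis, is encoded by *Col1a1* (chr11:94827050-94843868, GRCm39, plus strand) and *Col1a2* (chr6:4504814-4541555, plus strand). *Col1a1* had 4.6, 4.0 and 9.6 normalized CPM in control replicates 1, 2 and 3, 1173.6, 37.6 and 13.9 in compound KO, and 59.6, 5.9 and 31.0 in double KO. The mean ± SD (n = 3) was 6.07 ± 3.07 in control, 408 ± 663 in compound KO and 32.2 ± 26.9 in double KO. All 3 compound KO libraries were above all 3 controls, but the first of them was at 193 times the control mean and the third at 2.29 times. In bulk tissue, more cells of a type and more RNA per cell cannot be told apart, here and in all values that follow. *Col1a2* had 3.8, 3.7 and 10.7 normalized CPM in control, 33.7, 49.1 and 13.0 in compound KO, and 54.0, 5.6 and 12.2 in double KO. Here compound KO replicate 1 was not the highest library, and double KO replicate 1 was.

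The 2 chains of type I collagen therefore ran side by side in 8 libraries and parted in compound KO replicate 1. The ratio of *Col1a1* to *Col1a2* was between 0.766 and 2.54 in those 8 libraries and 34.8 in that one. Per kilobase of the canonical transcript (5930 bases for *Col1a1*, 5359 for *Col1a2*), the 2 levels in compound KO replicate 1 were 198 and 6.29 normalized CPM. The entries are transcript-level, and how the reads of *Col1a2* were divided among its transcripts in that library was not tested.

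Type III collagen, a homotrimer that forms fibrils with type I in soft connective tissue and vessel walls, is encoded by *Col3a1* (chr1:45350698-45395840, plus strand), the gene whose promoter with both TATAAA and TGCTGA is shown above. *Col3a1* had 7.1, 4.7 and 18.2 normalized CPM in control, 660.5, 40.3 and 18.8 in compound KO, and 57.7, 5.2 and 53.6 in double KO. Its means ± SD (n = 3) were 10 ± 7.20, 239.9 ± 364 and 38.8 ± 29.2. The third control (18.2) and the third compound KO library (18.8) were nearly level, and double KO replicate 2 lay within the control range. The ratio of *Col3a1* to *Col1a1* was lowest in compound KO replicate 1, at 0.563, and lay between 0.881 and 1.90 in the others.

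Type V collagen is a minor component that starts type I fibrils and limits their diameter, with chains encoded by *Col5a1* (chr2:27776397-27929526, plus strand) and *Col5a2* (chr1:45412554-45542442, minus strand). *Col5a1* was expressed in every library, with 70.6, 62.0 and 62.8 normalized CPM in control, 242.3, 65.2 and 75.2 in compound KO, and 84.8, 49.1 and 67.7 in double KO. Compound KO replicate 1 was at 3.72 times the control mean and the other 8 libraries were at 0.754 to 1.30 times. *Col5a2* had 13.1, 12.2 and 14.4 normalized CPM in control, 197.2, 18.2 and 17.5 in compound KO, and 27.2, 10.4 and 23.8 in double KO. All 3 compound KO libraries were above the controls, and double KO replicates 1 and 3 were above them while replicate 2 was below. The ratio of *Col5a1* to *Col5a2* fell from between 2.84 and 5.39 in 8 libraries to 1.23 in compound KO replicate 1. *Col5a2* and *Col3a1* are neighbours on chromosome 1 with their 3′ ends facing each other, 16.7 kb apart and with 0 protein-coding genes between them.

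Decorin (*Dcn*, chr10:97315275-97358155, plus strand) and lumican (*Lum*, chr10:97400990-97408577, plus strand) are small leucine-rich proteoglycans that coat collagen fibrils and set their spacing, and lumican is a main proteoglycan of the transparent corneal stroma. The 2 genes lie 42.8 kb apart with 0 protein-coding genes between them. *Dcn* had 1.2, 0.7 and 3.6 normalized CPM in control, 124.6, 7.5 and 5.4 in compound KO, and 16.1, 0.7 and 14.5 in double KO. *Lum* had 1.3, 0.6 and 3.9 normalized CPM in control, 69.8, 3.6 and 4.0 in compound KO, and 11.7, 0.1 and 12.3 in double KO. Both genes were at a low level in control lenses, highest in compound KO replicate 1, and next highest in double KO replicates 1 and 3. Their ratio (*Dcn* to *Lum*) was 0.923 to 2.08 in 8 libraries and 7 in double KO replicate 2, where the 2 values (0.7 and 0.1) are close to the rounding step of the table.

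Periostin (*Postn*, chr3:54268501-54298471, plus strand) is a secreted protein of collagen-rich tissues that promotes cross-linking of the fibrils. It had 0.9, 0.7 and 1.3 normalized CPM in control, 141.7, 3.9 and 0.5 in compound KO, and 18.7, 1.1 and 2.2 in double KO. Its level was almost wholly that of 2 libraries, both labelled replicate 1, and the third compound KO library was below every control. Of its 3 double KO values 2 were above every control and 1 lay within the control range. *Postn* is the gene whose upstream promoter window, shown above, holds the antioxidant response element core. Whether that match bears on its values was not tested.

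Fibrillin-1 (*Fbn1*, chr2:125142514-125349913, minus strand) forms the microfibrils of elastic tissue and of the zonule that suspends the lens. It had 36.7, 27.6 and 31.5 normalized CPM in control, 95.4, 40.0 and 45.3 in compound KO, and 44.4, 22.0 and 32.9 in double KO. All 3 compound KO libraries were above the controls, whereas of the double KO libraries 1 was above, 1 within and 1 below the control range.

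*Pdgfra* (chr5:75311994-75358876, plus strand) encodes a receptor for platelet-derived growth factor that marks mesenchyme and fibroblasts and is also known from the lens epithelium. It had 156.3, 172.2 and 163.7 normalized CPM in control, 72.0, 123.2 and 134.7 in compound KO, and 139.7, 173.4 and 149.4 in double KO. It ran against the other 9 genes: it was lowest in compound KO replicate 1, at 0.439 times the control mean, and highest in double KO replicate 2, where 5 of the 10 genes had their lowest value. All 3 compound KO libraries were below all controls. Its values thus did not follow the collagens. In compound KO replicate 1 it was low together with the summed lens genes, but in double KO replicate 2, where it was highest, the lens sum (47364.8) was the third lowest.

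**Figure D1:**
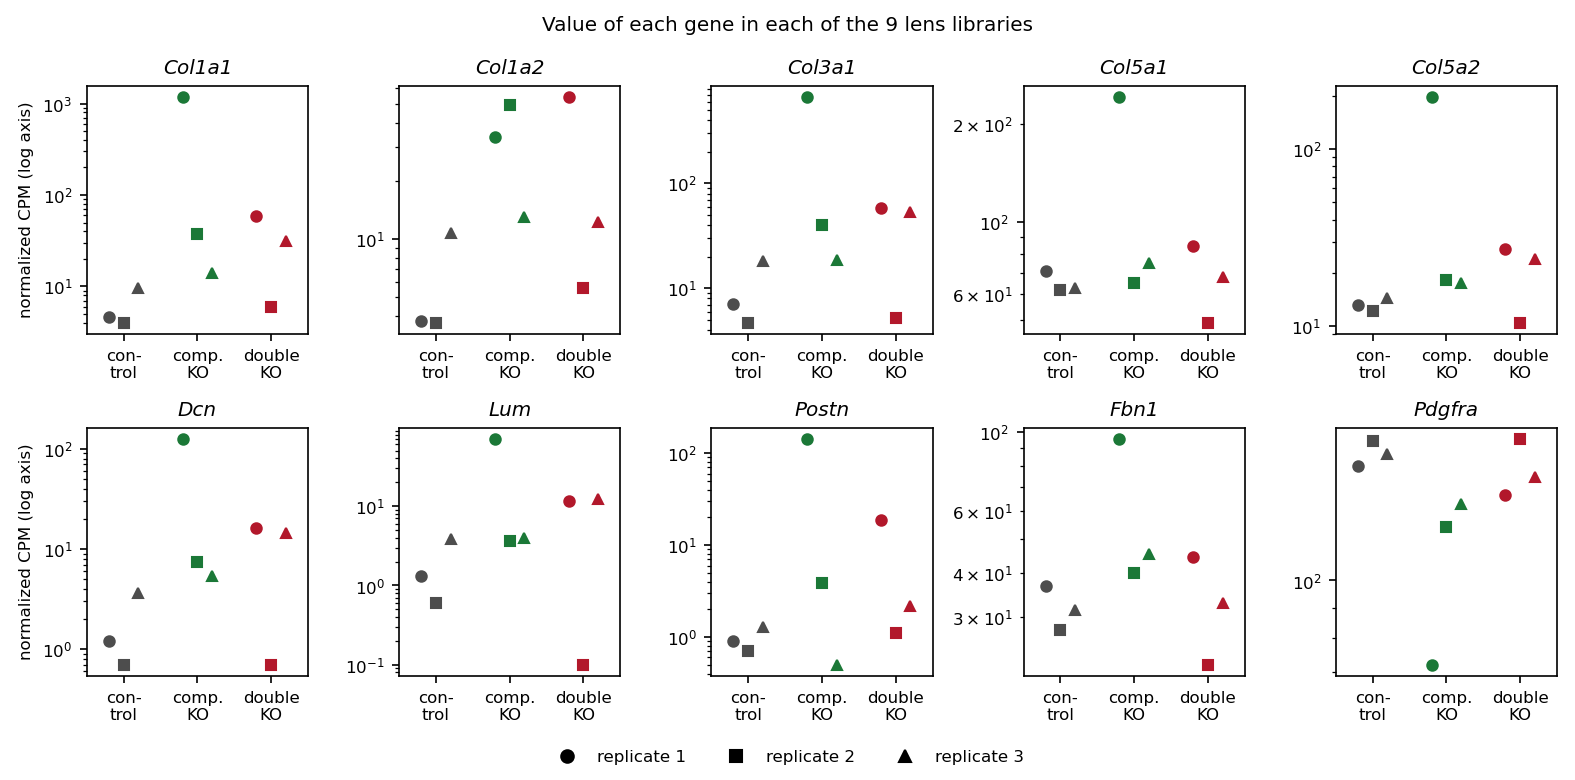
Normalized CPM (log axes that differ between panels) of each of the 10 genes in the 9 libraries, by genotype (comp. KO, compound KO), with a symbol for each replicate number. Compound KO replicate 1 was the highest library for 8 genes and the lowest for *Pdgfra*, while *Col1a2* was highest in double KO replicate 1 at 54.0.

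Per kilobase of canonical transcript, a scale on which genes can be set beside each other, the order of mean levels in control lenses was *Pdgfra* (24.9 normalized CPM per kb), *Col5a1* (7.71), *Fbn1* (2.66), *Col3a1* (1.80), *Col5a2* (1.75), *Col1a2* (1.13), *Col1a1* (1.02), *Lum* (0.786), *Postn* (0.305) and *Dcn* (0.300). The first 3 did not overlap each other over the 3 control libraries. From *Fbn1* downward every gene overlapped its neighbour in the order, so that those ranks are not resolved. In compound KO replicate 1 the order was another: *Col1a1* led with 198 normalized CPM per kb, then *Col3a1* with 119 and *Postn* with 44.8, and *Pdgfra* had 10.9. The control order thus had the receptor and a minor fibril chain first, and the major fibril collagens were at levels near 1 to 2 normalized CPM per kb.

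Library by library, the 9 genes other than *Pdgfra* are given first as a sum, to which *Col1a1*, *Col3a1* and *Col5a1* contribute most. It was 116.2 to 156.0 normalized CPM in the 3 controls. It was 2738.8, 265.4 and 193.6 in compound KO replicates 1, 2 and 3, and 374.2, 100.1 and 250.2 in the double KO replicates. Of the 10 genes, 9 were above every control in compound KO replicate 1 and in double KO replicate 1, 7 in compound KO replicate 2, 8 in compound KO replicate 3, 7 in double KO replicate 3, and 1 (*Pdgfra*) in double KO replicate 2. The order of the libraries thus cut across the 2 KO genotypes. How many of all genes were above every control in each library was not counted, so the counts over the 10 genes have no background. The spread of a gene over all libraries also differed widely: the highest library was 698 times the lowest for *Lum*, 293 times for *Col1a1*, 283 times for *Postn*, 178 times for *Dcn* and 141 times for *Col3a1*, but 19.0 times for *Col5a2*, 14.6 times for *Col1a2*, 4.93 times for *Col5a1*, 4.34 times for *Fbn1* and 2.41 times for *Pdgfra*. The factor of *Lum* rests on 0.1 in double KO replicate 2, which is the rounding step, and was 116 without that library. Leaving out compound KO replicate 1 gave factors of 14.9 for *Col1a1*, 37.4 for *Postn*, 23.0 for *Dcn* and 12.3 for *Col3a1*. *Pdgfra*, *Col5a1* and *Fbn1*, the 3 genes with the highest control level per kilobase, had the smallest spreads over all 9 libraries.

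**Figure D2:**
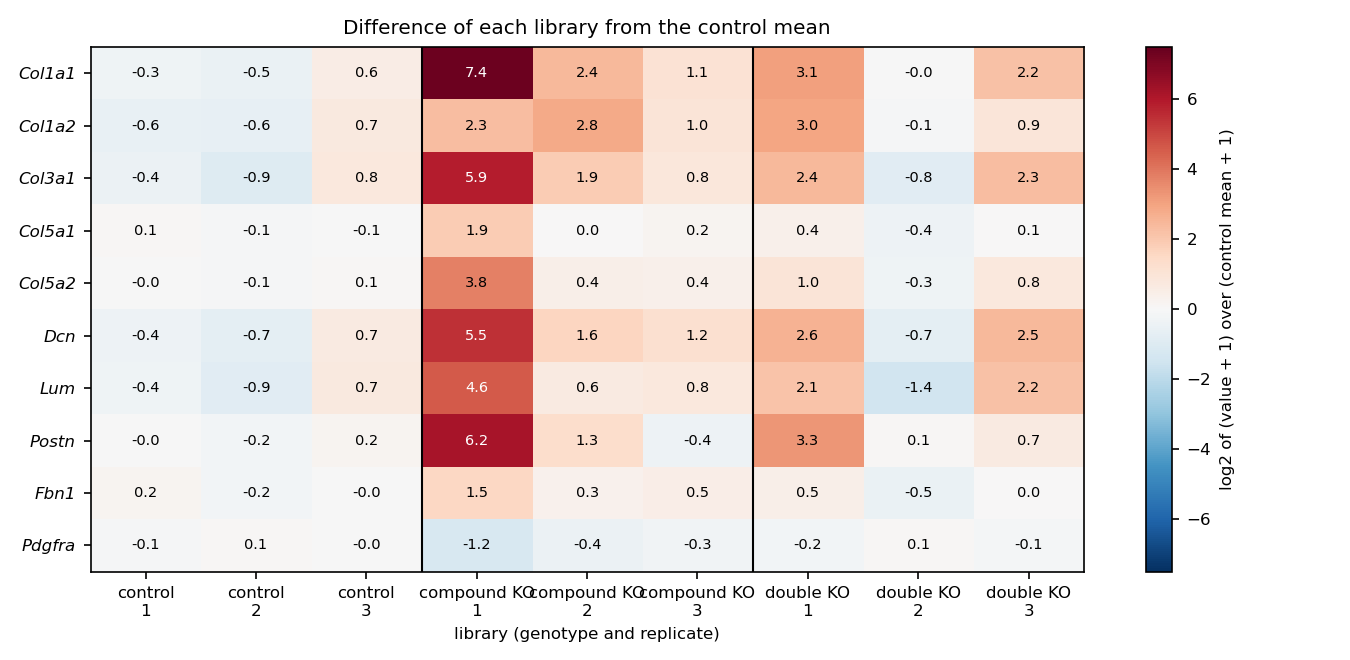
Log2 of the value plus 1 over the control mean plus 1 for the 10 genes (rows) in the 9 libraries (columns), with red for higher and blue for lower. The column of compound KO replicate 1 reached 7.4 for *Col1a1*, double KO replicates 1 and 3 were red for 8 and 7 genes by 0.4 or more, and double KO replicate 2 was near or below the controls.

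The first comparison asks what the loss of both genes changed. Between double KO and control lenses none of the 10 genes passed the test (limma on values log2-transformed after addition of 1, with an adjusted p no higher than 0.05 and a 1.5-fold difference or more), where 51 of 14122 genes (0.361%) did. A nominal threshold, the same fold with a p of 0.05 or less before adjustment, was also met by 0 of 10, against 2.83% of all genes, and for none of the 10 did the double KO values lie wholly outside the control values, as they did for 15.8% of all genes. *Col1a1* had the largest log2 fold change, 1.83 (SE 0.83, 95% interval −0.24 to 3.90), with an adjusted p of 0.559. *Dcn* followed with 1.57 (SE 0.99, adjusted p = 0.685), *Col3a1* with 1.5 (SE 1.0, adjusted p = 0.703), and *Col1a2* and *Postn* with 1.39 each (SE 0.84, adjusted p = 0.670 and 0.675). *Col5a1* and *Fbn1* had 0.01 (SE 0.20) and 0.00 (SE 0.26), and *Pdgfra* had −0.09 (SE 0.09). All 10 genes passed the filter on low values (at least 1 in 2 of the libraries compared), *Postn* only through the KO libraries. The median over the 10 genes was 1.25, beside 0.01 over all genes tested, and the adjusted p-values lay between 0.559 and 0.998.

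This comparison depended on single double KO libraries. Double KO replicate 2 is singled out here because it had the lowest sum of the 9 genes other than *Pdgfra*, 100.1 normalized CPM. Higher fold changes without it thus follow from that choice, and the shares over all genes are no matched background. Without double KO replicate 2 the median log2 fold change was 2.05. The remaining libraries lay outside the control values for 8 of the 10 genes, beside 26.8% of all genes in that fit. *Col1a1* (2.72), *Dcn* (2.66), *Col3a1* (2.56), *Lum* (2.31), *Col1a2* (2.07) and *Col5a2* (0.90) then met the nominal threshold, that is 6 of 10, beside 3.31% of all genes in the same fit. None passed the adjusted test, with a lowest adjusted p of 0.114 for *Col5a2*. Without double KO replicate 1 the median was 0.48, and without double KO replicate 3 it was 0.75. In either of these fits 0 of the 10 genes met the nominal threshold and 0 lay outside the control values.

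The second comparison asks what the loss of *Mafg* changed where a *Mafk* allele was left. Comparing compound KO with control, 0 of the 10 genes passed the adjusted test, as did 0 of all 14348 genes (0%). *Col1a2* (higher, log2 fold change 2.18, SE 0.59, 95% interval 0.71 to 3.64, unadjusted p = 0.0113, adjusted p = 0.481) and *Pdgfra* (lower, −0.62, SE 0.24, 95% interval −1.23 to −0.02, unadjusted p = 0.0450, adjusted p = 0.481) were the 2 genes that met the nominal threshold, beside 5.34% of all genes. The larger folds had larger errors: *Col1a1* had 3.72 (SE 1.63, 95% interval −0.31 to 7.75), *Col3a1* 3.08 (SE 1.36) and *Dcn* 2.88 (SE 1.21). For 7 genes the groups did not overlap, beside 23.9% of all genes: *Col1a1*, *Col1a2*, *Col3a1*, *Col5a2*, *Dcn* and *Fbn1* were higher in all 3 compound KO libraries, and *Pdgfra* was lower. The median log2 fold change was 2.17, beside 0.02 over all genes.

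Without compound KO replicate 1 the median fell to 0.67, so that this library carried most of the size of the difference. The other 2 compound KO libraries still lay outside the control values for 7 of the 10 genes, beside 31.6% of all genes in that fit. *Col1a2* (log2 fold change 2.05), *Col1a1* (1.85) and *Dcn* (1.51) then met the nominal threshold, 3 of 10, beside 3.68% of all genes. *Pdgfra* had a log2 fold change of −0.35 with an unadjusted p of 0.00477, which is under 1.5-fold, and adjusted p-values over the 10 genes were 0.244 to 0.738.

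The third comparison asks what the further loss of *Mafk* changed in lenses that lacked *Mafg*. Of the 10 genes, 0 passed the adjusted test, whereas 2 of 14402 genes did (0.0139%), and 0 met the nominal threshold, beside 3.06% of all genes. The groups did not overlap for 1 gene, *Pdgfra*, which was higher in double KO (log2 fold change 0.53, SE 0.25, adjusted p = 0.665), beside 15.6% of all genes. *Col1a1* had −1.89 (SE 1.78, 95% interval −6.28 to 2.51), and the median over the 10 genes was −1.02, beside −0.01 over all genes. Without compound KO replicate 1 the median was 0.02 and 5 of the 10 log2 fold changes were positive. The intervals are wide enough to hold several-fold differences in either direction for *Col1a1*, *Col3a1*, *Dcn*, *Lum* and *Postn*, so the lack of a call does not show that these genes were alike in the 2 knockouts. All 3 comparisons share libraries in pairs, and they are not independent of each other.

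**Figure D3:**
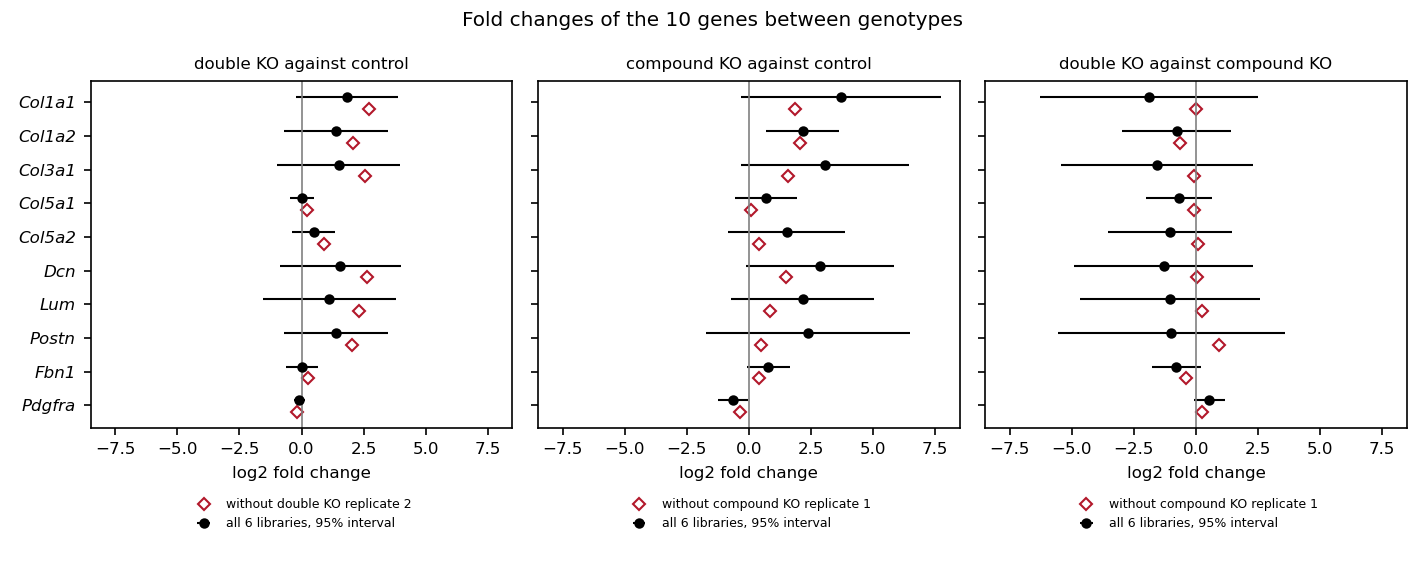
Log2 fold change of each gene in the 3 comparisons (filled circles, with the 95% interval from limma, 3 libraries a group). Open diamonds show the same after 1 library was left out. It was double KO replicate 2 in double KO against control and compound KO replicate 1 in the other comparisons. All 10 intervals spanned 0 in double KO against control and in double KO against compound KO, and leaving out compound KO replicate 1 brought the log2 fold change of *Col1a1* from 3.72 to 1.85 in compound KO against control.

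Likeness between the 10 genes over the 9 libraries was high, as a description of points that share their libraries. The log2 value of *Col1a1* correlated with the mean of the other 9 genes by Pearson's r = 0.989 (Spearman's rho = 0.933), that of *Col3a1* by 0.988 (rho = 0.983) and that of *Dcn* by 0.984 (rho = 0.979). *Lum*, *Col5a2*, *Postn*, *Fbn1* and *Col5a1* had r between 0.895 and 0.952, *Col1a2* had 0.720 and *Pdgfra* −0.926. Without compound KO replicate 1 the r of *Col1a1*, *Col3a1*, *Col5a2* and *Dcn* was 0.958 to 0.973, *Col1a2* rose to 0.871, *Postn*, *Col5a1* and *Fbn1* dropped to 0.766, 0.674 and 0.673, and *Pdgfra* was at −0.747. Thus *Col1a1*, *Col3a1*, *Col5a2* and *Dcn* kept step in the other 8 libraries as well, whereas the likeness of *Col5a1* and *Fbn1*, and in part that of *Postn*, rested on compound KO replicate 1.

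Of 14000 other entries with a mean of at least 1 normalized CPM, the 10 most like the mean of the 10 genes were *Col16a1* (r = 0.995), *Col6a2* (0.987), *Mtfr2* (0.985), *E2f8* (0.984), *Col6a1* (0.981), *Tmem119* (0.978), *Ltbp4* (0.976), *Fads2* (0.973), *Tgfbr2* (0.972) and *Sertad4* (0.972), with rho between 0.895 and 0.983 over 9 libraries. After the 2 libraries farthest from the median (replicate 1 of compound KO and of double KO) were left out, their r was 0.913 to 0.979. *Tmem119* reached the required mean only through compound KO replicate 1, with a mean of 0.825 over the other 8 libraries. *Col6a1* and *Col6a2* encode chains of the beaded-filament collagen type VI, *Col16a1* a fibril-associated collagen, *Ltbp4* a microfibril protein that stores latent TGF-β and *Tgfbr2* a TGF-β receptor. *Col6a1* had 3.3, 1.4 and 3.6 normalized CPM in control, 151.2, 13.8 and 5.8 in compound KO, and 13.4, 0.9 and 8.2 in double KO. Its 4 highest libraries were the same as those of *Col1a1*. *E2f8* (a repressor of the cell cycle) and *Fads2* (a fatty acid desaturase) are not matrix genes.

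Other genes of the pathway were taken as whole lists. How many of all genes were highest or lowest in compound KO replicate 1 was not counted. The counts of genes highest or lowest there thus have no background, in this list and in those that follow. Of 6 further fibril-forming chains 5 had an entry, all 5 of them highest in compound KO replicate 1. *Col2a1*, the collagen of cartilage and vitreous, had 38.0, 0.2 and 21.8 normalized CPM in control, 53.9, 41.4 and 17.5 in compound KO, and 3.4, 15.7 and 23.1 in double KO, so that it followed no genotype. *Col11a1* was at 60.0 in compound KO replicate 1 against 4.6 to 13.1 elsewhere, and *Col27a1* at 15.6 against 5.6 to 11.2. In the tests of 4 of these genes none was called in any comparison, and 1, *Col11a2*, met the nominal threshold (double KO against compound KO, log2 fold change −0.65, adjusted p = 0.665). With compound KO replicate 1 left out it was 0 of 4 there, and in compound KO against control 1 of 4, *Col11a1* (0.72, adjusted p = 0.370).

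Of 26 fibril-associated and interstitial matrix genes 24 had an entry, 19 of them highest and 3 lowest in compound KO replicate 1. The 3 with the highest mean were *Ogn* (osteoglycin, a small leucine-rich proteoglycan), *Mfap2* and *Fbn2* (microfibril proteins). *Ogn* and *Mfap2* were abundant in control lenses, at 229.0 to 242.7 and 156.8 to 174.6 normalized CPM, and were lowest in compound KO replicate 1, at 130.0 and 118.2. *Fbn2* was at 50.3 to 123.4 in control and highest in that library, at 193.8. None of these genes was called. At the nominal threshold, *Col12a1* was higher in double KO than in control (log2 fold change 1.73, adjusted p = 0.469), and *Eln* (1.43), *Fbn2* (1.07) and *Fmod* (1.87) were higher in compound KO than in control (adjusted p = 0.481 each), which is 1 of 19 and 3 of 22 genes tested. *Col12a1* was below 1 in every control library, and *Col12a1* and *Fmod* passed the filter only with the KO libraries. In double KO against compound KO 3 of 23 were lower, *Fbn2* (−0.91), *Fmod* (−1.94) and *Prelp* (−0.76), with an adjusted p of 0.665 each. *Prelp* passed the filter there only through the compound KO libraries. With compound KO replicate 1 left out, *Efemp2* was higher (0.61) and *Fmod* lower (−1.32) in double KO against compound KO (adjusted p = 0.830 each), and *Col12a1* (1.12, adjusted p = 0.412) and *Col6a1* (1.47, adjusted p = 0.379) were higher in compound KO than in control.

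The enzymes and chaperones that fold, modify and cross-link collagen did not move as a group. Of 25 listed genes 22 had an entry, 8 of them highest and 3 lowest in compound KO replicate 1, and their summed value in that library, 939.4 normalized CPM, lay within the range of the others, 913.7 to 1180.7. *P4hb* (the shared subunit of prolyl 4-hydroxylase) was at 194.7 to 208.7 in control and 258.3 in compound KO replicate 1, and *Ppib* (a prolyl isomerase) was between 137.3 and 148.7 in all 9 libraries. These 2 and *P4ha1*, at 22.7 to 291.3, make up much of the sum. Chosen after their values were seen, *Lox* (the lysyl oxidase that starts collagen cross-links) was at 45.5 in compound KO replicate 1 against 0.3 to 6.9 elsewhere, and *Adamts2* (a procollagen N-proteinase) at 10.2 against 0 to 1.4. None was called in any comparison. *Loxl2*, a lysyl oxidase, was higher in double KO than in control at the nominal threshold (log2 fold change 0.65, adjusted p = 0.165, 1 of 20 genes tested), and *P3h3* was higher in compound KO (0.87, adjusted p = 0.481, 1 of 21). In double KO against compound KO it was 0 of 21. It was 0 in both comparisons that use compound KO replicate 1 once that library was left out.

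The name of the cell type was checked against markers of periocular mesenchyme and fibroblast identity, of which 14 of 20 had an entry. Their summed value in replicates 1, 2 and 3 was 21.3, 18.3 and 24.1 normalized CPM in control. It was 185.2, 40.1 and 28.1 in compound KO, and 30.4, 17.1 and 49.3 in double KO. Every KO library but double KO replicate 2 was above all controls, as for the sum of the 9 genes other than *Pdgfra*. Of the 14 markers, 12 were highest in compound KO replicate 1. The 3 with the highest mean were *Tfap2b*, *Pdgfrb* and *Ebf1*. *Tfap2b*, a neural crest transcription factor, had 2.2, 1.6 and 4.9 normalized CPM in control, 60.6, 9.5 and 4.4 in compound KO, and 2.9, 0.7 and 14.0 in double KO. *Lmx1b*, *Thy1* and *Twist2* were listed at 0 in at least 1 control library. No marker of the list exceeded 8.4 normalized CPM in a control library, and the name mesenchyme therefore describes the genes, not a cell type shown in control lenses. None was called, and at the nominal threshold *Prrx1* was higher in double KO (log2 fold change 0.87, adjusted p = 0.139, 1 of 9 tested) and *Lmx1b* in compound KO (0.96, adjusted p = 0.481, 1 of 10), with 0 of 10 in double KO against compound KO. *Prrx1* and *Lmx1b* were below 1 in every control library, so that they passed the filter only through the KO libraries. Without compound KO replicate 1 the gene at the nominal threshold in compound KO against control was *Prrx1* (0.64, adjusted p = 0.335), and 0 of 10 met it in double KO against compound KO.

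Markers of other tissues next to the lens were also highest in compound KO replicate 1, and they followed the collagens only in part in the other libraries. Their part in the collagen values was not tested. The summed value of 12 of 13 skeletal muscle genes was 3.9 to 6.9 normalized CPM in control, 25.8 to 456.5 in compound KO and 35.4 to 115.2 in double KO, with 11 of 12 highest in compound KO replicate 1 and 5 listed at 0 in a control. In double KO against control 1 of 11 muscle genes tested was called, *Myod1* (adjusted p = 0.00386). *Myod1* was the list gene that was not highest in compound KO replicate 1. It had 0.2, 0.1 and 0 normalized CPM in control, 2.6, 6.2 and 7.8 in compound KO, and 9.2, 8.3 and 6.2 in double KO. Its call is thus not a call for the pattern of the other muscle genes. All 11 met the nominal threshold, beside 2.83% of all genes, and did not overlap the control values, beside 15.8%. Most were below 1 in every control library and passed the filter only through the KO libraries. In compound KO against control 0 of 11 were called and 5 met the nominal threshold, beside 5.34% of all genes. All 11 lay outside the control values there, beside 23.9% of all genes. Without compound KO replicate 1, 1 of 7 was called there, *Myod1* (adjusted p = 0.0322), beside 13 of 14042 genes. All 7 then met the nominal threshold, beside 3.68% of all genes, and lay outside the control values, beside 31.6%. Muscle and collagen parted in double KO replicates 2 and 3, which had the same muscle sum, 35.4, but 5.2 and 53.6 normalized CPM of *Col3a1*. For 2 of 8 surface and corneal epithelium genes (*Krt5* and *Krt15*) the sum was 0.4 to 2.2 in control, 3.0 to 254.6 in compound KO and 2.2 to 3.8 in double KO. The sum of 6 of 8 genes of retinal pigment epithelium and melanocytes was 3.3 to 19.6 in control, 14.8 to 699.8 in compound KO and 5.3 to 17.3 in double KO, with 3 listed at 0 in a control. For 9 of 10 neural retina genes it was 29.7 to 80.3, 89.9 to 534.8 and 32.6 to 116.5, with 1 listed at 0 in a control. All 17 genes of the last 3 lists were highest in compound KO replicate 1, a count without the share over all genes. In double KO replicates 1 and 3, where *Col1a1* and *Col3a1* were above every control, the pigment sums (15.3 and 17.3) lay within the control range, as did the retina sum of replicate 3 (61.6). The retina sum of double KO replicate 1 (116.5) was above every control. So were the retina and pigment sums of compound KO replicate 2 (177.6 and 32.9). In compound KO replicate 3 the retina sum (89.9) was above the control range and the pigment sum (14.8) within it.

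In the remaining lists 3 further sums peaked in compound KO replicate 1. The sum of 10 endothelium and pericyte genes was 89.7 to 112.5 normalized CPM in control, 102.7 to 177.3 in compound KO and 106.8 to 109.9 in double KO, and that of 7 of 9 macrophage genes was 12.4 to 16.1, 27.7 to 35.3 and 10.1 to 18.8, with 6 of the 7 highest in compound KO replicate 1. For 4 of 9 cartilage and bone genes it was 5.9 to 9.3, 9.0 to 33.6 and 8.7 to 11.6. These 3 maxima in compound KO (177.3, 35.3 and 33.6) were those of replicate 1. The macrophage sum was, however, above every control in all 3 compound KO libraries. In compound KO against control 3 of 7 macrophage genes met the nominal threshold, beside 5.34% of all genes, and none was called. Without compound KO replicate 1 it was 4 of 6, beside 3.68% of all genes, again without a call. Red blood cell genes (7 of 7) were at 1169.7 to 1638.0 in control, 1424.2 to 2835.2 in compound KO and 2336.7 to 3869.7 in double KO. In double KO against control 4 of 7 met the nominal threshold, beside 2.83% of all genes, and none was called. Their sum was highest in double KO replicate 2. That library also had the lowest sum of the 5 fibrillar collagen genes, 76.2, although *Col1a1*, *Col1a2* and *Col3a1* were lower in control replicate 2. The lens capsule genes (8 of 8, led by *Col4a1*, *Col4a2* and *Nid1*) had 7 of 8 lowest in compound KO replicate 1, at a sum of 3156.5 against 6853.7 to 8645.2 elsewhere. None of these 8 was called or met the nominal threshold in any comparison, with or without compound KO replicate 1, so the network-forming collagen of the lens and the fibrillar collagens differed in opposite directions in that library without a call for either.

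**Figure D4:**
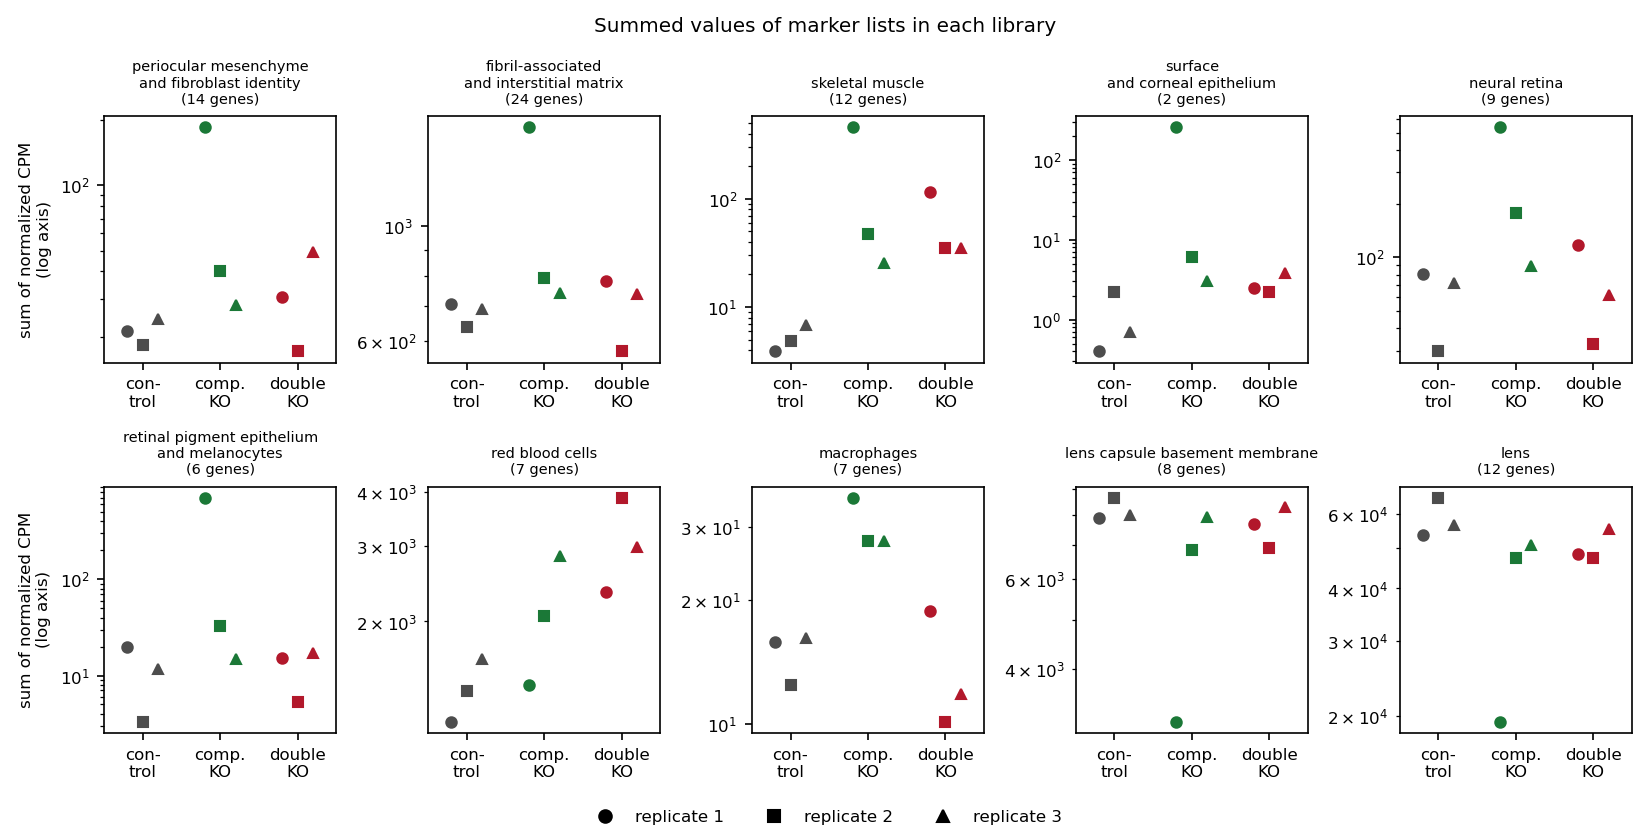
Summed normalized CPM (log axes that differ between panels) of 10 gene lists in the 9 libraries, by genotype, with a symbol for each replicate number. Mesenchyme, matrix, muscle, corneal epithelium, retina and pigment epithelium lists were highest in compound KO replicate 1, where the lens capsule (3156.5) and lens (19331.5) lists were lowest.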

How the data were processed

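RNA of mouse lenses at E16.5 was sequenced in 9 strand-specific libraries, grouped by genotype as labelled. The authors trimmed reads with Trimmomatic, aligned them to mm39 with HISAT2, obtained transcript-level values with StringTie and removed entries of low CPM in edgeR (versions not given in the sources used here; the processing notes also list Cufflinks). The deposited values are a signal: normalized CPM with a composition factor per library, rounded to 1 decimal. Depth is unknown, so no counting interval is given. Values were compared with limma 3.58.1 (R 4.3.3) after addition of 1 and log2 transformation, allowing the variance to follow the mean level, for each pair of groups apart, two-sided. Entries entered when they carried a symbol and reached 1 in 2 or more of the 6 libraries, and Benjamini-Hochberg adjustment ran over all of them. Calls needed an adjusted p of at most 0.05 and 1.5-fold. The fit was tested on simulated data. The unadjusted results are given because the study's methods do not say whether p was adjusted. Lengths and positions come from GENCODE vM39, and the canonical transcript's length stands for that of the entry. The text names all 10 genes, the 3 genes of highest mean in each companion list, the 10 entries most like the 10 genes, and further list genes that passed an unadjusted threshold or were chosen after their values were seen. The genes and lists were chosen with earlier results of these data known. Alternatives were another scaling, no filter, a pseudocount of 0.1, a joint fit of the 9 libraries, a block for the replicate number, and leaving out each library. Python 3.11.15, numpy 2.4.6, pandas 2.3.3 and matplotlib 3.10.9 were used.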

Additional observations from a re-analysis of the deposited data

How the results depend on the processing

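None of the 10 genes was called in any of 360 fits under the alternatives, the lowest adjusted p being 0.114 (*Col5a2*, double KO against control without double KO replicate 2), and 347 of these fits kept the direction. The number of genes at the nominal threshold was less stable. It was 0 to 6 in double KO against control and 1 to 5 in compound KO against control with 1 library at a time left out, and 0 to 1 in double KO against compound KO. In compound KO against control it was 1 with libraries scaled to the same total and 1 with the same upper quartile, against 2, and it was 3 with a pseudocount of 0.1, with a joint fit of the 9 libraries and with the replicate block, which added *Dcn*, *Col1a1* and *Fbn1* respectively. The median log2 fold change there was 0.67 to 2.74 with a library left out. Scaling to the same total moved the median of all genes by over 0.1, to 0.24 in compound KO against control and −0.17 in double KO against compound KO, where the medians of the 10 genes were 2.39 and −1.19. With a library left out, the log2 fold changes that changed sign ranged from −0.17 to 0.22 (*Col5a1*) and from −0.23 to 0.26 (*Fbn1*) in double KO against control. In double KO against compound KO they ranged from −1.63 to 0.084 (*Col5a2*), −2.09 to 0.056 (*Dcn*), −1.72 to 0.25 (*Lum*) and −2.38 to 0.91 (*Postn*). Libraries that share a replicate number correlated by −0.10 to 0.22 after removal of group means, so the numbers were not used as pairs. With the replicate block, 1 of the 10 genes (*Fbn1*) met the nominal threshold in double KO against compound KO, against 0, and calls over all genes went from 51 to 10 in double KO against control. The causes of these shifts were not tested beyond the libraries left out.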

Other observations

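Among the genes that fold and process collagen, *Serpinh1*, *P4ha1* and *Bmp1* had values at separate levels that followed no genotype, and they were chosen here after their values were seen. *Serpinh1*, the collagen chaperone Hsp47, had 4.8, 5.0 and 73.6 normalized CPM in control, 6.3, 78.2 and 5.8 in compound KO, and 6.0, 4.5 and 6.2 in double KO. *P4ha1*, a catalytic subunit of prolyl 4-hydroxylase, had 291.3, 48.5 and 240.1 in control, 22.7, 208.7 and 40.2 in compound KO, and 48.6, 270.0 and 53.3 in double KO. *Bmp1*, the procollagen C-proteinase, had 5.8, 79.2 and 84.7 in control, 21.0, 71.9 and 80.5 in compound KO, and 41.7, 6.0 and 71.5 in double KO. Control replicate 3 and compound KO replicate 2 were among the high libraries of all 3 genes, whereas compound KO replicate 1, the highest for *Col1a1*, was not. The entries are transcript-level, and the cause was not tested.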
